A study of Mus musculus with 7 samples.

Results

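The miRNAs described here come from 6 mouse hairpin families that p53 is known to regulate: miR-34a, miR-34b, miR-34c, miR-192, miR-194 and miR-215. Every entry of the array that carried one of these hairpin names was taken, whichever arm it measured. The rule itself uses no measured value, but the families were picked with earlier results of these data known. This gave 8 of the 696 mouse miRNA entries on the array: miR-34a-5p, miR-34b-5p, miR-34b-3p, miR-34c-5p, miR-34c-3p, miR-192-5p, miR-194-5p and miR-215-5p.

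The cells were soft tissue sarcoma cells taken from mice that lack p53, so all 3 groups were p53-null and no comparison here is one of p53 status. Control primary cells carried a non-target shRNA and Rb-depleted primary cells an shRNA against Rb1, both grown as a monolayer under puromycin selection. Rb-depleted secondary cells were derived from spheres that the Rb-depleted cells had formed in serum-free methylcellulose with EGF and bFGF, and were then passaged once in monolayer culture. Each primary group had 2 arrays and the secondary group had 3. A control for the sphere passage without Rb depletion was not analysed here, so Rb-depleted secondary cells differed from control cells in both Rb status and culture history. A single Rb1 shRNA was used, the arrays measure miRNAs and so could not check Rb1 itself, and the series text calls the replicates independent experiments without saying whether they started from separate tumors or separate transductions.

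In cells with intact p53, DNA damage and other stress let p53 bind the promoters of the miR-34a and miR-34b/c genes and raise their transcription. The mature miR-34 strands repress cell cycle and survival genes such as Cdk4, Cdk6, Ccne2, Met and Bcl2, and Rb, which was depleted here, is the protein that Cdk4 and Cdk6 phosphorylate. miR-194 lies beside miR-192 at one locus and beside miR-215 at the other, and these clusters are also raised by p53 and are best known in liver, kidney and gut epithelium, where miR-192 and miR-194 are abundant.

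A miRNA recognises its targets mainly through the seed, bases 2 to 8 from the 5′ end, so the sequences are shown with the seed in capitals to make clear which members share targets and which probes face similar sequences. Of the 8 mature sequences, 7 were matched in RefSeq (GRCm38.p6), all but miR-34c-5p.
miR-34a-5p: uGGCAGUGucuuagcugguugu
miR-34b-5p: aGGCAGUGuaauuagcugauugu
miR-34b-3p: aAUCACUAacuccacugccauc
miR-34c-3p: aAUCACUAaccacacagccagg
miR-192-5p: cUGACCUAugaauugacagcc
miR-215-5p: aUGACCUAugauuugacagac
miR-194-5p: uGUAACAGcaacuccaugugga
miR-449a-5p: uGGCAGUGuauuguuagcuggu
The 5p strands of miR-34a and miR-34b had the same seed, the 3p strands of miR-34b and miR-34c shared another, and miR-192-5p and miR-215-5p shared their own, while miR-194-5p stood alone. Read from the 5′ end without gaps, miR-34a-5p and miR-34b-5p had 11 of 22 bases the same, the seed included. This count understates their likeness, because the bases they share after the seed lie further along in miR-34b-5p, which is 23 bases long. Counted in the same way, miR-192-5p and miR-215-5p, which are of equal length, had 18 of 21 bases the same. miR-449a-5p, a relative of miR-34 that is known to be induced by E2F1, a factor that Rb restrains, is shown because it carries the miR-34 seed.

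On the genome build of the arrays (NCBI37, mm9), Mir34a lay on chromosome 4 from 149442563 to 149442664 on the plus strand, between genes and 18809 bases from the nearest protein-coding gene, Gpr157. Mir34b (chromosome 9, 50911667 to 50911750) and Mir34c (50911139 to 50911215) lay on the minus strand 451 bases apart, outside any other annotated gene and close to 4833427G06Rik. Mir192 (chromosome 19, 6264844 to 6264932) and Mir194-2 (6264643 to 6264728) were 115 bases apart on the plus strand, outside any other gene and near Atg2a. Mir194-1 (chromosome 1, 187137198 to 187137264) and Mir215 (187137460 to 187137571) were 195 bases apart within an intron of Iars2, on the strand opposite to that gene. The miR-34 members thus had separate loci for miR-34a and miR-34b/c, and miR-194 had 2 loci, which the array could not tell apart.

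Each array measured a miRNA with 2 probes printed in 10 copies each for the members, and the scanner software summed the probes into a total gene signal in intensity units, with a call of detected or not. Between 258 and 287 of the 696 mouse miRNAs were detected per array, fewest on replicate 1 of the Rb-depleted secondary cells. The deposited table held quantile-normalized log2 values for the 252 mouse miRNAs detected on all 7 arrays. The 4 arrays of primary cells and replicate 1 of the secondary cells shared 1 slide, and replicates 2 and 3 of the secondary cells were on the second. Of the marker miRNAs, 7 of 8 mesenchymal entries were detected on all arrays, with summed total gene signals of 12552 to 13555 in control cells, 9083 to 10934 in Rb-depleted primary cells and 11687 to 13295 in Rb-depleted secondary cells. None of 10 epithelial, 5 blood or 1 liver entries was detected on any array. Of 5 skeletal muscle entries, miR-206-3p was detected throughout (12.9 to 47.0). Of 2 endothelial entries, miR-126-3p was detected on the 4 primary arrays (7.02 to 10.73) and on no secondary array. These signals were near the 6.21 to 10.0 that a probe of the undetected members needed for a call, so the calls alone cannot show a change. Brightness on an array depends on the probe as well as on the miRNA, so levels were compared between arrays and not between miRNAs.

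The 8 members fell into 3 kinds. miR-34a-5p, miR-34b-5p and miR-34c-5p were detected on all 7 arrays. miR-192-5p was detected on 6 arrays and miR-34b-3p on 1. miR-34c-3p, miR-194-5p and miR-215-5p were detected on none. The members detected on all arrays made up 37.5% of the 8, compared with 36.2% of the 696 mouse miRNAs, and those detected on none made up 37.5%, compared with 55.2%. The main guide strands of the miR-34 hairpins were therefore measurable in cells that had no p53, and among miR-192, miR-194 and miR-215 the 5p strand of miR-192 alone was.

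The total gene signal of miR-34b-5p read 171 and 205.6 on the control arrays, 180 and 184 on the Rb-depleted primary arrays, and 323, 229 and 344 on the secondary arrays. All 3 secondary arrays were above every primary array, and the control and Rb-depleted primary arrays overlapped. The total gene signal of miR-34c-5p, processed from the same transcript, read 103 and 122.3 on the control arrays, 120 and 116 on the Rb-depleted primary arrays, and 172, 128 and 187 on the secondary arrays. Its order over the arrays was similar, and replicate 2 was again the lowest of the secondary arrays. The group means of miR-34b-5p were 188 ± 24.5 (SD, n = 2), 182.0 ± 2.31 (SD, n = 2) and 299 ± 61.3 (SD, n = 3) in that order, and those of miR-34c-5p 113 ± 13.8, 118 ± 2.67 and 163 ± 30.8. miR-34a-5p, from its own locus, had a total gene signal of 29.7 and 33.2 on control arrays, then 11.9 and 21.3 after Rb depletion, and 38.2, 38.3 and 45.1 on secondary arrays. Here both Rb-depleted primary arrays were below both control arrays, and all secondary arrays were above them. These signals precede any normalization between arrays. In RNA from a whole culture, a smaller share of cells with a miRNA and less of it per cell cannot be told apart.

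**Figure D1:**
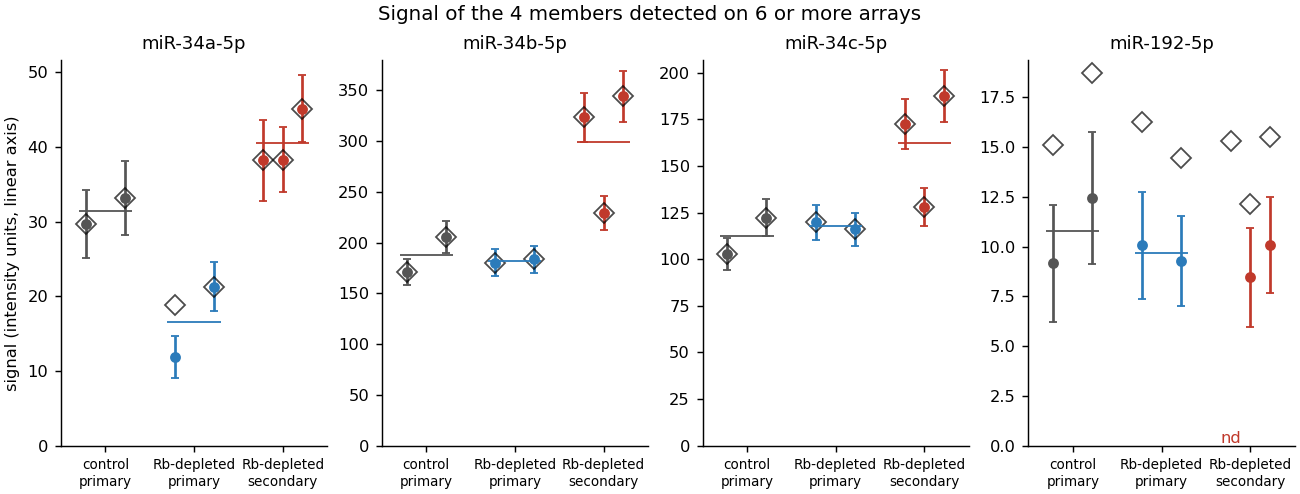
Signal of miR-34a-5p, miR-34b-5p, miR-34c-5p and miR-192-5p on each array, in intensity units before normalization, by group. Filled points are total gene signals with the scanner's error, lines are group means where all arrays were detected, open diamonds are the sum over both probes, and nd marks an array called not detected; for miR-34a-5p the diamond and the point part on replicate 1 of the Rb-depleted primary cells alone (18.9 and 11.9), and for miR-192-5p the diamonds lie between 12.1 and 18.7 on every array, including the one called not detected.

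The value of 11.9 for miR-34a-5p was a sum over 1 probe rather than 2. In the scanner files, the total gene signal was the sum over those probes whose signal exceeded 3 times their error: this gave the deposited value within 0.1% for all 1958 detected values, and no probe passed the ratio in any of the 2914 values called not detected. On replicate 1 of the Rb-depleted primary cells, probe 1 of miR-34a-5p had a signal of 6.97 with an error of 2.62, a ratio of 2.66, and was left out. Both probes passed on the other 6 arrays. Summed over both probes, miR-34a-5p read 29.7 and 33.2 on control arrays, then 18.9 and 21.3 after Rb depletion, and 38.2, 38.3 and 45.1 on secondary arrays. Before normalization, the Rb-depleted primary arrays were then still below both control arrays, with a mean of 20.1 ± 1.73 (SD, n = 2) in place of 16.6 ± 6.66. The mean was 31.4 ± 2.47 (SD, n = 2) in control cells and 40.6 ± 3.96 (SD, n = 3) in secondary cells. After quantile normalization of these sums, the log2 values were 4.57 and 4.66 on control arrays and 4.08 and 4.66 on the Rb-depleted primary arrays, which overlapped. No probe of miR-34b-5p or miR-34c-5p came near the ratio of 3, with lowest ratios of 9.21 and 8.12. Among the 1764 values of the 252 miRNAs, 338 (19.2%) lacked at least 1 probe, and for 43 miRNAs the number of probes summed changed between arrays.

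The same rule decided the calls of the dimmer members. miR-192-5p passed with probe 2 alone on 6 arrays, at ratios from 3.09 to 4.20, and its total gene signal was 9.16 and 12.5 on control arrays, 10.1 and 9.28 on the Rb-depleted primary arrays, and 8.46 and 10.1 on replicates 2 and 3 of the secondary cells. On replicate 1 of the secondary cells probe 2 had a signal of 10.0, within the range of the other arrays, but an error of 3.47 and a ratio of 2.89, so that the miRNA was called not detected. The sum over both probes of miR-192-5p was 15.1 and 18.7 on control arrays, 16.3 and 14.4 on the Rb-depleted primary arrays, and 15.3, 12.1 and 15.5 on the secondary arrays, and the 3 groups overlapped. No test of a change is given for miR-192-5p, since its value came from 1 probe near the ratio and is missing on 1 array. miR-34b-3p, the partner strand of miR-34b-5p, was called on replicate 3 of the secondary cells alone, where probe 2 had a signal of 7.0 at a ratio of 3.07. Its sum over both probes was 4.98 and 6.52 on control arrays, 7.69 and 5.44 on the Rb-depleted primary arrays, and 8.81, 6.35 and 9.80 on the secondary arrays, so the array with the call was the highest but not set apart. For the probes of the 3 members detected on no array, 3 times the error came to 6.21 to 10.0 depending on the array, and it was highest on replicate 1 of the secondary cells, where the fewest miRNAs were detected. Probe 2 of miR-192-5p had a larger error on that array and so needed more.

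The spots of the members were also read one by one, against the negative control spots. Of the 140 spots of each member over all arrays, the number brighter than the 95th percentile of the negative control spots of the same array was 12 (8.57%) for miR-194-5p, 3 (2.14%) for miR-34c-3p and 0 for miR-215-5p. It was 140 for miR-34b-5p and for miR-34c-5p, 136 (97.1%) for miR-34a-5p, 91 (65%) for miR-192-5p and 27 (19.3%) for miR-34b-3p. Both probes of miR-215-5p had signals below 0 after background subtraction on every array (-2.32 to -1.11), whereas the probes of miR-192-5p, whose sequence matches it at 18 of 21 bases, read 3.67 to 12.5. For these 3 members a change between groups was not detectable at this sensitivity.

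**Figure D2:**
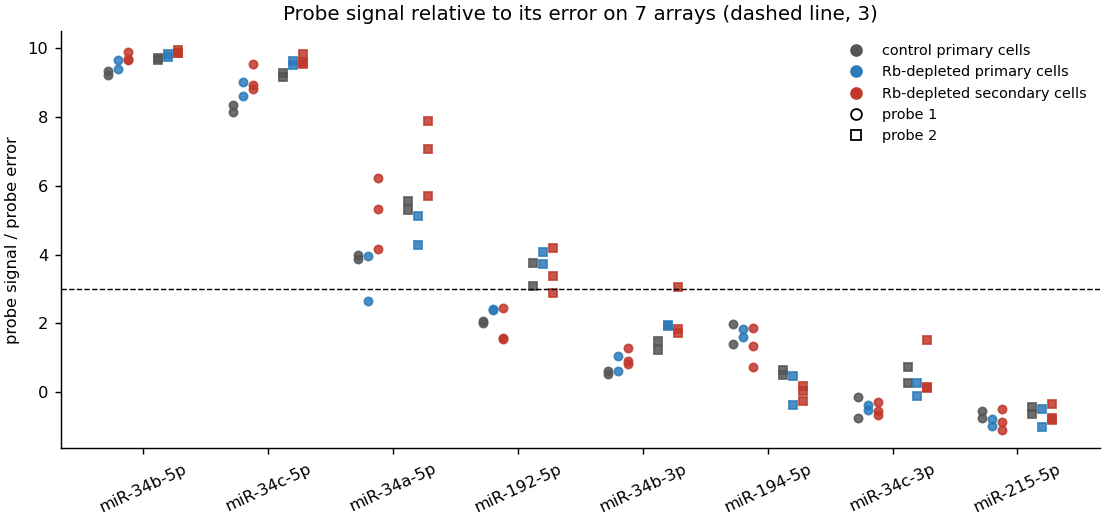
Ratio of probe signal to probe error for the 2 probes of each member on the 7 arrays, by group, with the ratio of 3 that a probe needed to enter the total gene signal as a dashed line. miR-34b-5p and miR-34c-5p are far above the line on every array, miR-34a-5p has 1 point below it (2.66), and miR-192-5p lies across it.

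Differences between groups were tested on the deposited log2 values with limma, fitted to all 252 miRNAs. The moderated F-test over the 3 groups was passed by 109 of the 252 miRNAs at an adjusted p under 0.1 (43.3%), and by miR-34a-5p, miR-34b-5p and miR-34c-5p, with adjusted p of 0.0482, 0.0247 and 0.0418. With such a share of all miRNAs passing, 3 of 3 is not particular to the members. With slide as a term in the fit, 0 of the 3 passed, without replicate 1 of the control primary cells 0 of the 3, and without replicate 2 of these or replicate 1 of the secondary cells 1 of the 3.

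The first comparison asks what Rb depletion changed in monolayer culture, and no member passed in it. Compared with control primary cells, 4 of 252 miRNAs passed in Rb-depleted primary cells at an adjusted p under 0.05 (1.59%), and 0 of the 3 members, in limma (64 of the 252 had an unadjusted p under 0.05). The deposited log2 values of miR-34b-5p were 7.15 and 7.39 on the control arrays, against 7.51 and 7.64 with Rb depleted. Those of miR-34c-5p were 6.40 and 6.55, and 6.79 and 7.02. Both sets lay apart on the deposited scale, as higher values without overlap did for 78 of the 252 miRNAs (31%), but overlapped before normalization. The log2 fold changes were 0.30 (SE 0.19, limma adjusted p = 0.366) for miR-34b-5p and 0.43 (SE 0.22, adjusted p = 0.274) for miR-34c-5p. The deposited log2 values of miR-34a-5p were 4.44 and 4.59 on the control arrays, against 3.44 and 4.52 with Rb depleted, with a log2 fold change of -0.53 (SE 0.35, adjusted p = 0.390). This estimate rested on replicate 1, the array that lacked a probe: it was 0.011 without replicate 1 of the Rb-depleted primary cells and -1.07 without replicate 2. With all probes summed, an alternative added once the data had been seen, the change was -0.24 (SE 0.21, adjusted p = 0.485). Without normalization between arrays it was -0.98 (SE 0.26, adjusted p = 0.0536), where the median of the 252 miRNAs was -0.26.

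In Rb-depleted secondary cells the 3 members were higher than in control primary cells, and 2 of them passed the test. miR-34b-5p had deposited log2 values of 8.28, 8.03 and 8.55 against 7.15 and 7.39, a rise of 1.02 (SE 0.17, limma adjusted p = 0.0175), or 2.02-fold with a 95% interval of 1.51 to 2.72. miR-34c-5p had values of 7.51, 7.15 and 7.77 against 6.40 and 6.55, a rise of 1.01 (SE 0.20, adjusted p = 0.0246), or 2.01-fold (1.43 to 2.83). miR-34a-5p had values of 5.42, 5.40 and 5.66 against 4.44 and 4.59, a log2 fold change of 0.98 (SE 0.32, 1.98-fold, 1.14 to 3.41) that did not pass (adjusted p = 0.0837). The 3 estimates lay close together and ranked 13th, 14th and 16th by rise among the 252. In this comparison 57 of the 252 miRNAs passed (22.6%), 33 of them higher (13.1%), and the secondary arrays were all above the control arrays for 75 (29.8%), among them the 3 members. The median change was 1.01 over the 3 members and 0.03 over the 252.

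The error of miR-34a-5p was the widest of the 3, and the fit pools the spread of the 3 groups, so that the array lacking a probe enters it. Its change was the same 0.98 without replicate 1 or without replicate 2 of the Rb-depleted primary cells, which are not arrays of this comparison. The array left in that group adds no spread, so both fits are the same here by construction. They cannot single out the array lacking a probe. With all probes summed, the change of miR-34a-5p was 0.87 (SE 0.19, limma adjusted p = 0.0280), and all 3 members passed, where 62 of the 252 did. miR-34b-5p and miR-34c-5p were barely altered by this step, with rises of 1.02 (adjusted p = 0.0156) and 1.01 (adjusted p = 0.0207).

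The calls needed most of the arrays. miR-34b-5p no longer passed without replicate 1 (adjusted p = 0.128) or replicate 2 (0.0775) of the control cells or replicate 1 of the secondary cells (0.0560), and miR-34c-5p no longer passed without the same arrays (0.154, 0.101 and 0.0724). The changes stayed between 0.89 and 1.14 for miR-34b-5p and between 0.86 and 1.17 for miR-34c-5p. Slide and group were partly confounded: with slide as a term, miR-34b-5p had a change of 1.01 (adjusted p = 0.0972) and miR-34c-5p of 1.03 (adjusted p = 0.125), and 6 of the 252 miRNAs passed. Within the first slide there was 1 secondary array, too few for a test, and its deposited log2 value was above the higher control array by 0.90 for miR-34b-5p, 0.96 for miR-34c-5p and 0.84 for miR-34a-5p.

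The scaling of the arrays mattered for the size of the change. Without normalization, the median of the 252 miRNAs was 0.46 lower in secondary than in control cells on the log2 scale, and the changes of miR-34b-5p, miR-34c-5p and miR-34a-5p were 0.65 (adjusted p = 0.0329), 0.52 (adjusted p = 0.0566) and 0.37 (adjusted p = 0.233). The direction was kept under every scaling tried, and the rises of about 1 are relative to that shift. Both probes of each member gave like values: relative to the array median of the 252 miRNAs, secondary minus control was 0.82 and 0.87 for miR-34a-5p, 1.13 and 1.13 for miR-34b-5p, and 0.94 and 1.03 for miR-34c-5p.

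**Figure D3:**
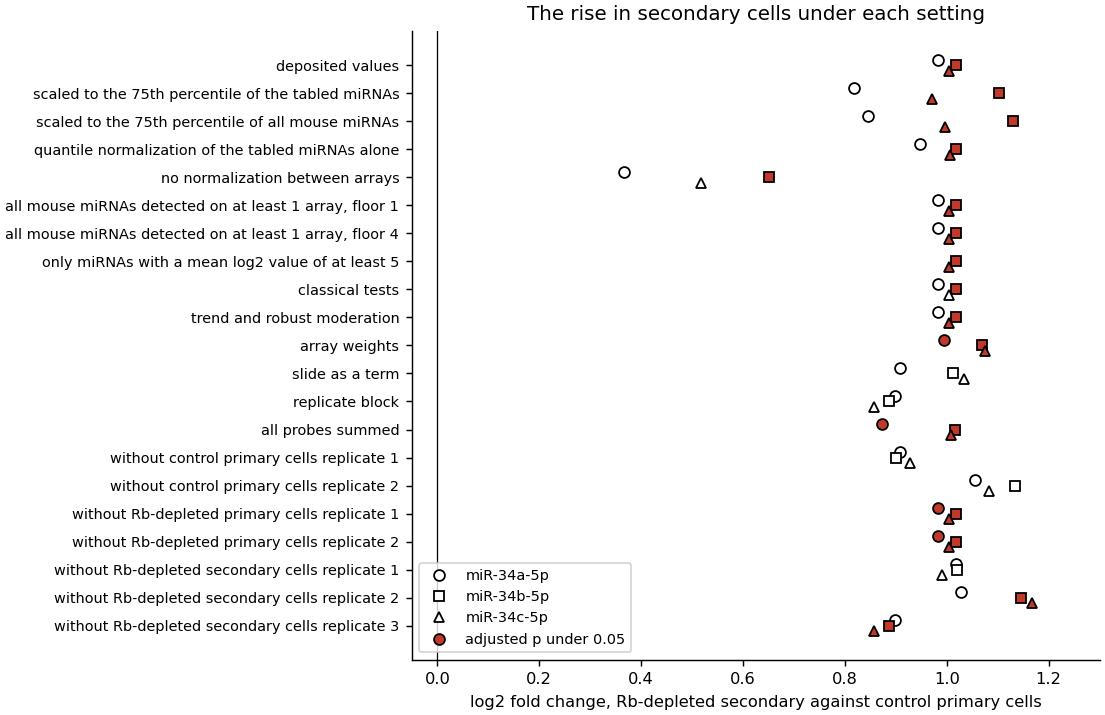
Log2 fold change of miR-34a-5p (circles), miR-34b-5p (squares) and miR-34c-5p (triangles) in Rb-depleted secondary against control primary cells under each setting and with each array left out, filled where the limma adjusted p was under 0.05. All points are above 0, the values without normalization are the lowest (0.37 to 0.65), and miR-34a-5p is filled with all probes summed, with array weights and without either Rb-depleted primary array.

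Compared with Rb-depleted primary cells, which carried the same shRNA, the members were again higher in Rb-depleted secondary cells, and 2 of the 3 passed. Here 51 of the 252 miRNAs passed (20.2%), 32 of them higher (12.7%), and the secondary arrays were all above the primary arrays for 68 (27%), among them the 3 members. miR-34a-5p rose by 1.51 on the log2 scale (SE 0.32, limma adjusted p = 0.0307), or 2.85-fold (95% interval 1.65 to 4.93). miR-34b-5p rose by 0.71 (SE 0.17, adjusted p = 0.0413), or 1.64-fold (1.22 to 2.21). The change of miR-34c-5p was 0.57 (SE 0.20, adjusted p = 0.0844), and its interval ran from 1.06-fold to 2.09-fold. The median change was 0.71 over the members and 0.02 over the 252. Of the 7 mesenchymal marker entries tested, 5 passed as higher in this comparison and 2 in secondary against control cells, and 0 passed as lower in either. Among those that did not pass, miR-145a-5p was slightly lower in both (-0.08 and -0.05). The part of these entries in the result was not tested. This comparison shares its secondary arrays with the one against control cells, and the 2 sets of changes are not independent.

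The size for miR-34a-5p depended on which Rb-depleted primary array was used. It was 0.97 (adjusted p = 0.0315) without replicate 1 of the Rb-depleted primary cells and 2.05 (adjusted p = 0.0197) without replicate 2. With all probes summed it was 1.12 (SE 0.19, adjusted p = 0.0139), with normalized log2 values of 4.08 on replicate 1 and 4.66 on replicate 2 of the Rb-depleted primary cells, and miR-34b-5p then had 0.71 (adjusted p = 0.0347) and miR-34c-5p 0.57 (adjusted p = 0.0836). The call for miR-34a-5p was lost without replicate 1 or 2 of the control cells (0.0778 for either) and without replicate 1 (0.0865) or 3 (0.0789) of the secondary cells. That for miR-34b-5p was lost on leaving out any 1 array other than replicate 2 of the secondary cells, with adjusted p from 0.0719 to 0.142, whereas miR-34c-5p passed without that array (0.0311). With slide as a term, the changes were 1.44 (adjusted p = 0.168) for miR-34a-5p and 0.71 (adjusted p = 0.185) for miR-34b-5p.

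**Figure D4:**
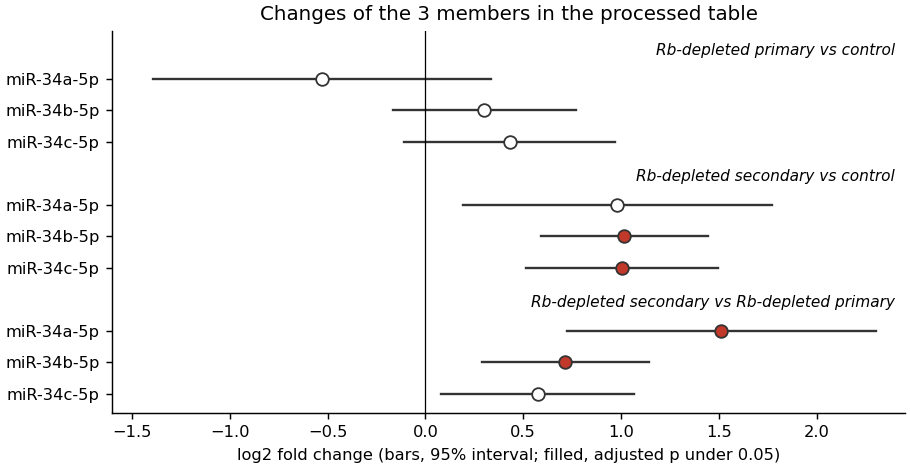
Log2 fold changes of the 3 members in the deposited table in the 3 comparisons, with 95% intervals, filled where the limma adjusted p was under 0.05. The intervals of Rb-depleted primary against control cells cross 0, those of the secondary cells do not, and miR-34a-5p has the widest intervals.

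On the same array, the deposited log2 value of miR-34b-5p exceeded that of miR-34c-5p by similar amounts: 0.76 and 0.84 on the control arrays, 0.72 and 0.61 on the Rb-depleted primary arrays, and 0.77, 0.88 and 0.77 on the secondary arrays. The range of this difference over the arrays was 0.26. Its change was -0.13 from control to Rb-depleted primary cells, 0.01 from control to secondary cells and 0.14 from Rb-depleted primary to secondary cells. A single factor for an array cancels in the difference, but quantile normalization is not one, and with 1 factor for each array, or none, they were -0.12, 0.13 and 0.25. With so few arrays the permutation test could not pass for any of them. The strands of this cluster are closely related in sequence, and these data cannot tell apart how far each probe also bound the other miRNA.

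miR-34a-5p, from the other locus, did not keep a fixed distance. Its deposited log2 value minus that of miR-34b-5p was -2.71 and -2.80 on control arrays, -4.07 and -3.11 on the Rb-depleted primary arrays, and -2.86, -2.63 and -2.89 on the secondary arrays. Both Rb-depleted primary arrays were below the other 5. With all probes summed the differences were -2.58 and -2.72, then -3.42 and -2.97, then -2.88, -2.63 and -2.88, and the Rb-depleted primary arrays remained the lowest with a smaller gap. The change from control to Rb-depleted primary cells was -0.83 on the deposited values and -0.54 with all probes summed, with an exact permutation p of 0.333, the smallest that 2 against 2 arrays allow. Between Rb-depleted primary and secondary cells it was 0.80 on the deposited values and 0.40 with all probes summed. The exact permutation p was 0.2 for either, the smallest that 2 against 3 arrays allow in this two-sided test. Of the 9 such tests over the 3 pairs of members, the smallest p adjusted by Benjamini-Hochberg was 0.5, and no exact permutation test over so few arrays could pass 0.05. On values scaled by 1 factor for each array or not normalized, the change of miR-34a-5p against miR-34b-5p was -0.94 from control to Rb-depleted primary cells. It was -0.28 from control to secondary cells and 0.65 from Rb-depleted primary to secondary cells. These 3 changes include the array with a probe left out. With all probes summed and no normalization, the differences were -2.53 and -2.63 on control arrays and -3.26 and -3.11 on the Rb-depleted primary arrays. On the secondary arrays they were -3.08, -2.58 and -2.93, so replicate 1 of these was close to replicate 2 of the Rb-depleted primary cells.

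Among all 252 miRNAs, the profile over the 7 arrays most like that of miR-34b-5p was miR-34c-5p, and the reverse held as well. The root mean square difference of their centred log2 values was 0.08, against a median of 0.51 over the other miRNAs for each. The next for miR-34b-5p were miR-155-5p (0.15) and miR-181a-5p (0.16), and for miR-34c-5p miR-155-5p (0.10) and miR-27b-3p (0.18). The 3 profiles most like that of miR-34a-5p were miR-101a-3p (0.33), miR-148a-3p (0.42) and miR-136-5p (0.42), against a median of 0.74, and miR-34b-5p came 7th (0.45) and miR-34c-5p 13th (0.50). The likeness for miR-34a-5p includes the array with the missing probe.

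Of the miR-449 miRNAs, which are relatives of miR-34, none of miR-449a, miR-449b and miR-449c was detected on any array. Of 14 further entries whose transcription p53 is known to raise, 11 were detected on none. They were miR-145a-3p, a mesenchymal marker entry, and the epithelial miR-205-5p and entries of miR-141, miR-200a, miR-200b, miR-200c and miR-429. The other 3, miR-107-3p, miR-143-3p and miR-145a-5p, were detected on all arrays. Of these 3, 0 passed in either comparison with control cells (1.59% of the 252 for primary and 22.6% for secondary cells). In Rb-depleted secondary against Rb-depleted primary cells 1 passed, where 20.2% of the 252 did. That was miR-143-3p, a miRNA abundant in mesenchymal cells and also 1 of the mesenchymal marker entries, which rose by 0.62 (SE 0.16, limma adjusted p = 0.0465). The median changes of the 3 were 0.02 in Rb-depleted primary against control cells, -0.05 in secondary against control cells and -0.08 in secondary against Rb-depleted primary cells. Without normalization, miR-107-3p and miR-145a-5p passed in secondary against control cells at -0.56 (adjusted p = 0.0133) and -0.50 (adjusted p = 0.0329), close to the shift of -0.46 in the median of the 252.

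p53 is also known to assist the processing of miR-15a, miR-16, miR-143 and miR-145 by the Drosha complex. Of 7 entries of these, 4 were detected on all arrays, and 0 passed in Rb-depleted primary against control cells (1.59% of the 252 did). miR-15a-5p, which targets cyclins and Bcl2, had deposited log2 values of 9.61 and 9.73 on the control arrays, against 10.69, 10.05 and 10.52 on the secondary arrays, and rose by 0.75 (SE 0.20, limma adjusted p = 0.0461). It was the 1 of 4 that passed in that comparison, where 22.6% of the 252 did. miR-143-3p was the 1 of 4 that passed against Rb-depleted primary cells, where 20.2% did. Counts near these shares are not particular to the list. Both calls were lost on leaving out any 1 array other than replicate 2 of the secondary cells, with adjusted p of up to 0.237 for miR-15a-5p and 0.206 for miR-143-3p.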

How the data were processed

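Total RNA from 7 cultures was hybridized by the authors to 1-colour Agilent mouse miRNA arrays, 1 sample per array. The deposited scanner files hold, for each miRNA, the total gene signal (an intensity in arbitrary units after background subtraction), its error and a detection flag (0 or 1), as well as the intensity of each spot. The deposited processed table holds log2 values that the authors quantile normalized, for the 252 mouse miRNAs detected on all 7 arrays. These log2 values were recomputed from the total gene signals of all features to within 3.24e-06. The file headers name Feature Extraction 11.0.1.1 and the submitters' processing notes 10.7.3.1, and how this affects the values was not tested. Signals of undetected miRNAs are stored as a constant of 0.1.

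Groups were taken from the sample labels. The deposited log2 values of all 252 miRNAs were fitted with limma 3.58.1 (R 4.3.3) by group with empirical Bayes moderation, and p-values were adjusted by Benjamini-Hochberg over the 252 miRNAs. The moderated F-test was called at an adjusted p under 0.1 and the 3 pairwise comparisons under 0.05, with 4 residual degrees of freedom. Differences between members on the same array were compared by exact two-sided permutation tests over arrays (SciPy 1.17.1). The number of arrays limits the precision, and p-values measure the spread between these cultures, which may be partly technical. Alternatives were 12 planned settings (statmod 1.5.0 for the robust one), leaving out each array in turn, and 1 setting added after seeing the data, the sum over all probes with a floor of 1. The fitting code was tested on simulated data. All members were described, other genes were named when they belonged to the lists and passed a test or had the highest signals of their list, or were among the 3 profiles nearest a member, and the members and lists were chosen with earlier results of these data known. Sequences are from RefSeq (GRCm38.p6), matched by miRNA name, and positions are on NCBI37 (mm9). No p-value or fold change of the authors was used.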

Additional observations from a re-analysis of the deposited data

Results flagged for a closer look

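The change from control cells differed between the groups of secondary and primary Rb-depleted cells for miR-34a-5p, by 1.51 on the log2 scale, and for miR-34b-5p, by 0.71. The test was the limma contrast between the 2 Rb-depleted groups, with adjusted p of 0.0307 and 0.0413, and all 3 secondary arrays were above both primary arrays for both miRNAs. Of the 252 miRNAs, 51 (20.2%) passed this contrast and 68 (27%) had all secondary arrays above both primary arrays. Both calls were lost with slide as a term (adjusted p = 0.168 and 0.185). On leaving out 1 array, the call for miR-34a-5p was lost for either control array and for replicates 1 and 3 of the secondary cells, and that for miR-34b-5p for every array but replicate 2 of the secondary cells. miR-34a-5p had 1 probe left out on 1 of the primary arrays, and the difference was 1.12 with all probes summed. The miR-34b-3p strand, which is not in the processed table, had a total gene signal of 7.0 on replicate 3 of the Rb-depleted secondary cells, where it was called detected. It was called on no other array, the other secondary arrays included.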

How the results depend on the processing

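Over 13 settings other than leaving out an array, 97 of 114 recomputed member changes kept their direction and their side of the threshold, 14 lost a call, 2 gained one and 1 turned its direction, and of 51 values for the 4 called changes 37 kept the call. The cause was not tested unless said.

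In the moderated F-test, 62 miRNAs passed with classical tests, 24 with slide as a term and 6 with the replicate block, and of the members 0 passed with slide and 0 with the block. In Rb-depleted primary against control cells, 0 miRNAs passed with either scaling to the 75th percentile, with slide and with the block, 27 without normalization and 8 with a floor of 1 or with array weights, and without normalization miR-34b-5p was at -0.043. In secondary against control cells, 29 passed with scaling to the 75th percentile of the 252 miRNAs (9 higher, 20 lower), 114 without normalization (5 higher, 109 lower), 34 with classical tests, 6 with slide and 4 with the block. Of the members, 1 passed without normalization, 1 with classical tests, 0 with slide and 0 with the block, and 3 with array weights or all probes summed. There miR-34a-5p was at 0.99 with array weights (adjusted p = 0.0418) and 0.87 with all probes summed. miR-34b-5p was at 1.01 with slide and 0.89 with the block (0.0988), and miR-34c-5p at 0.52 without normalization, 1.01 with classical tests (0.0606), 1.03 with slide and 0.86 with the block (0.114). In secondary against Rb-depleted primary cells, 15 miRNAs passed with classical tests, 0 with slide and 0 with the block. The split was 10 higher and 35 lower without normalization, and 26 and 35 with scaling to the 75th percentile of all mouse miRNAs. Of the members, 1 passed with scaling to the 75th percentile of the 252, with a floor of 1 and with a mean log2 value of at least 5 (by fewer members tested, since miR-34a-5p is below it), and 0 with classical tests, slide or the block. miR-34a-5p was at 1.51 with classical tests (0.0819), 1.44 with slide and 1.43 with the block (0.114). miR-34b-5p was at 0.91 with scaling (0.0513), 0.71 with a floor of 1 (0.0616), with classical tests (0.0945) and with slide, and 0.58 with the block (0.142).

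Deviations from the group mean correlated at -0.141 to 0.134 for same-numbered arrays of different groups and at -0.189 to 0.189 for differently numbered ones. In a group of 2 arrays the deviations are exact opposites, so these ranges are partly fixed in advance. They cannot show whether the replicate numbers pair the arrays.

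Leaving out each array in turn gave 33 to 124 miRNAs in the F-test, 0 to 22, 1 to 74 and 2 to 66 in the 3 comparisons, and 0 to 3, 0 to 0, 0 to 3 and 0 to 3 members. In the same order of comparisons, the changes ran from -1.07 to 0.011, 0.90 to 1.06 and 0.97 to 2.05 for miR-34a-5p, from 0.19 to 0.42, 0.89 to 1.14 and 0.58 to 0.84 for miR-34b-5p, and from 0.32 to 0.55, 0.86 to 1.17 and 0.43 to 0.74 for miR-34c-5p. The differences within an array changed by -1.31 to -0.35, -0.12 to 0.012 and 0.32 to 1.27 for miR-34a-5p against miR-34b-5p, by -1.39 to -0.54, -0.14 to 0.041 and 0.51 to 1.36 against miR-34c-5p, and by -0.18 to -0.08, -0.027 to 0.051 and 0.09 to 0.19 for miR-34b-5p against miR-34c-5p. Where a group is left with 1 array, that array is assumed to vary like the others. Signals near the probe limit leave miR-192-5p and miR-34b-3p without a usable estimate of change.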
